A study of Rattus norvegicus with 18 samples.

Results

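Replicating beta cells were compared with quiescent beta cells from the islets of young rats in 10 libraries, 5 labelled young replicative and 5 labelled young quiescent, out of 18 libraries in the series. The other 8 libraries hold the same pair of states from old rats, 4 of each. The 10 libraries were chosen by their labels for age and replicative status, and measured values played no part in that choice. All islets, in both states and at both ages, were cultured overnight in RPMI1640 medium with 10% FBS and 11.1 mM glucose and were exposed to 10 micromolar EdU. The series text describes 9 batches of islets, each pooled from 2 rats and each giving a replicating and a quiescent sample, and the replicate number was used here as the batch. Neither the labels nor the series text used here state the strain, the age in weeks, how the sort was gated or how many cells went into a library. The labels name the cell type as pancreatic islets and the series text names the sorted cells as beta cells.

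Beta cells make and secrete insulin. In the adult pancreas nearly all of them rest outside the cell cycle, and new beta cells arise mainly by division of existing ones, which becomes rarer with age. A cell that leaves rest builds up the proteins that copy DNA, passes through S phase and then builds up those that condense and separate the chromosomes. EdU is a thymidine analogue that is built into new DNA, so it marks cells that made DNA while it was present and does not tell apart those still in S phase from those that have gone on to divide.

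Genes carry Ensembl rat identifiers here. The deposited tables list no symbols, and none of the 27654 identifiers matched the reference table at hand. The labelled cell type was therefore not checked against marker genes, and the levels of markers of other islet cells in these libraries were not measured. A difference between sorted samples can come from a different number of cells with the RNA or from a different amount per cell, and bulk libraries do not tell these apart.

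Total counts ran from 2723660 to 14222719 in young quiescent and from 5439091 to 8242896 in young replicative libraries. The quiescent libraries resembled each other more than the replicative ones did. The mean Spearman correlation of a library with the others of its group was 0.945 to 0.968 in quiescent and 0.827 to 0.914 in replicative libraries. The biological coefficient of variation, the relative spread beyond counting noise, was 0.309 and 0.617. Replicative replicates 4 and 5 stood apart. They enter the replicative correlations and spread above, which are not given without them. Of the 12970 genes tested, 5.64% had 0 counts in replicate 4 and 8.80% in replicate 5, against at most 0.162% in the other 3 replicative libraries and at most 0.524% in quiescent libraries. Those shares were taken at unequal depth. With every library thinned to 2723660 counts, they were 7.22% and 10.4%. The highest others were then 0.563% in replicative replicate 2 and 2.68% in quiescent replicate 4, so the gap to quiescent libraries was smaller. On principal component 1, with 36.3% of the variance, replicate 5 scored 172 and the other 9 libraries scored between -43.7 and 36.7. The counts of called genes, their fold sizes and the counts of groups that did not overlap are also given without batches 4 and 5.

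**Figure D1:**
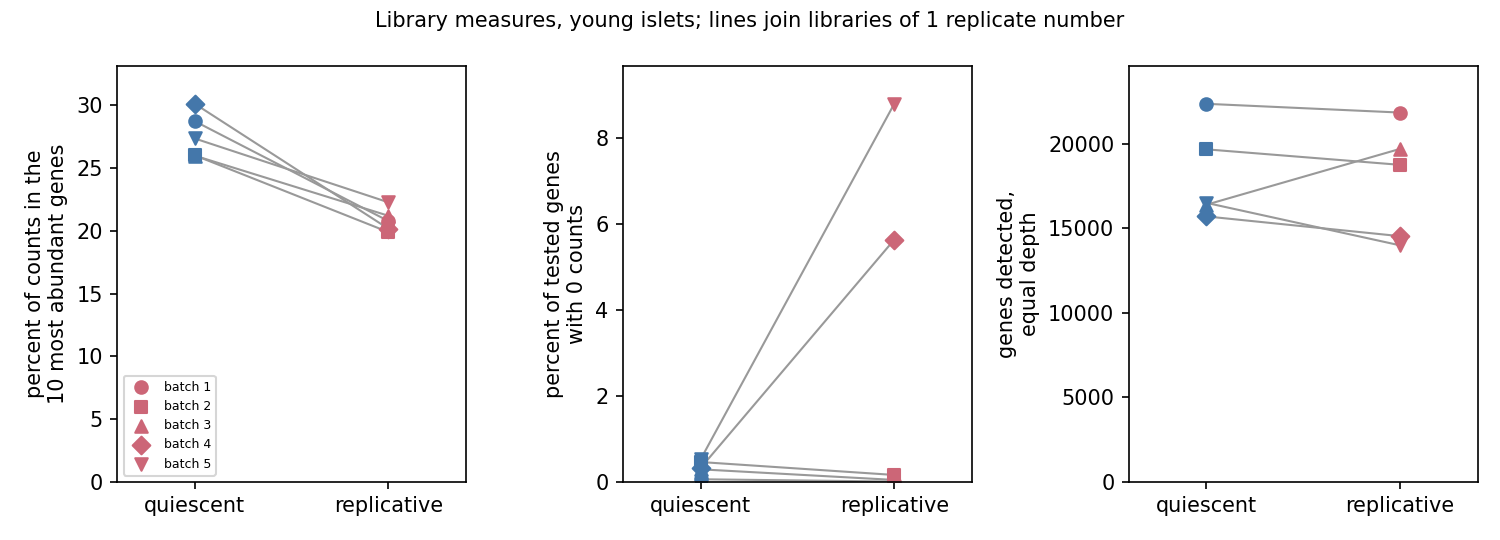
Percent of counts in the 10 most abundant genes, percent of tested genes with 0 counts, and genes detected after thinning every library to 2723660 counts, one point per young library, with lines joining the quiescent (blue) and replicative (red) library of a replicate number. The share of the top 10 genes was lower in the replicative library of all 5 batches, and the percent of genes at 0 was high in replicative replicates 4 and 5.

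The 2 higher genes named here were nearly silent in quiescent cells and rose strongly in replicating cells. They do not stand for all higher genes, whose median quiescent level was 14.1 CPM. ENSRNOG00000059894 had the smallest p among higher genes. Its level in quiescent libraries 1 to 5 was 4.46, 4.12, 3.26, 3.23 and 1.69 CPM (counts scaled to equal library size), and in replicative libraries 1 to 5 it was 245, 398, 353, 305 and 196 CPM. The groups were far apart, and the lowest quiescent and the lowest replicative value came from the same batch, number 5. The means were 3.35 ± 1.07 and 299 ± 81.2 CPM (SD, n = 5 each), an 89.2-fold ratio. The log2 fold change in the model with the batch as a block was 6.49 (SE 0.183, adjusted p = 1.27e-07 by edgeR's quasi-likelihood F test). Within batches the log2 difference ran from 5.69 to 6.64.

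ENSRNOG00000008115 followed the same pattern. It stood at 3.04, 2.62, 1.69, 2.07 and 1.13 CPM in quiescent libraries 1 to 5 and at 222, 295, 276, 289.8 and 97.4 CPM in replicative libraries 1 to 5. Batch 5 again held the lowest value of each group, and no value of a group came near the other group. The means were 2.11 ± 0.753 and 236 ± 82.8 CPM (SD, n = 5 each), a 112-fold ratio, with a log2 fold change of 6.82 (SE 0.206, edgeR adjusted p = 1.27e-07). Both genes kept the call in all 15 alternatives, with log2 fold changes of 6.38 to 6.68 and of 6.59 to 6.997. The alternatives reuse the libraries on which the genes were picked, so this is no independent support.

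The genes that fell were well expressed in quiescent cells and fell by less. ENSRNOG00000025235, with the smallest p among lower genes that reached a log2 change of 1, stood at 410.4, 453, 421, 344 and 259.6 CPM in quiescent libraries 1 to 5. In replicative libraries 1 to 5 it stood at 135, 134.7, 117, 91.7 and 101 CPM. Every replicative value lay below every quiescent one. The means were 378 ± 77.0 and 116 ± 19.6 CPM (SD, n = 5 each), a 3.25-fold ratio, and the log2 fold change was -1.69 (SE 0.108, edgeR adjusted p = 4.94e-06).

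ENSRNOG00000011875 differed widely between batches. Its quiescent values were 451, 1539.65, 1359, 1230.1 and 1014 CPM and its replicative values 189, 513, 327, 424 and 217 CPM. The groups overlapped, since quiescent library 1 lay below replicative library 2, yet the replicative library was lower in each of the 5 batches. The means were 1119 ± 419 and 334 ± 137 CPM (SD, n = 5 each), with a log2 fold change of -1.73 (SE 0.138, edgeR adjusted p = 2.44e-05) and within-batch differences of -2.23 to -1.25. Both lower genes kept the call in all 15 alternatives, which again reuse the libraries they were picked on.

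**Figure D2:**
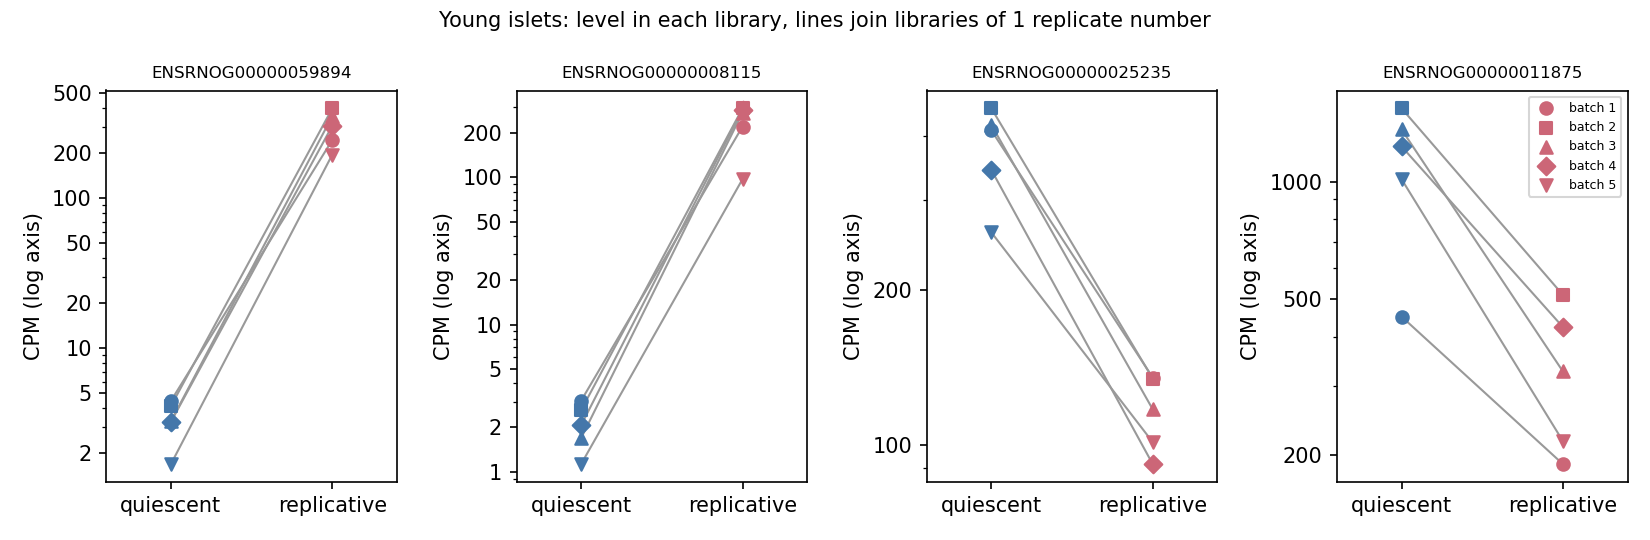
Level of the 4 genes in each young library in CPM on a log axis, with a marker shape per batch and lines joining the quiescent (blue) and replicative (red) library of a batch. All 5 lines rise for ENSRNOG00000059894 and ENSRNOG00000008115, and all 5 fall for ENSRNOG00000025235 and ENSRNOG00000011875.

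Across the transcriptome, 1101 of 12970 genes (8.49%) differed between replicating and quiescent young cells in edgeR's quasi-likelihood test with the batch block at an adjusted p under 0.05. Of these, 681 were higher (5.25% of genes tested) and 420 lower (3.24%) in replicating cells. The balance depended on the scaling of libraries, since upper-quartile factors gave 612 higher and 579 lower genes, and on the filter, since without one 712 genes were higher and 819 lower. The median log2 fold change of all genes tested was -0.08 with the main scaling and -0.14 with that one. Without the block, 624 genes were called higher and 162 lower. Without batches 4 and 5, whose replicative libraries stood apart, 1506 were called higher and 1068 lower of 14206 genes tested. These held 659 of the 681 and 394 of the 420. Regardless of the test, all 5 replicative libraries lay above all 5 quiescent ones for 671 genes (5.17%) and below them for 384 genes (2.96%). The replicative library was the higher one in every batch for 1444 genes (11.1%) and the lower one in every batch for 1581 genes (12.2%). Both kinds of count grow by construction with fewer libraries. The set of genes tested changed as well, so the counts below are not to be read directly beside the main ones. Without batch 5, with 13633 genes tested, they were 1120 and 786 for groups that did not overlap. For a shared direction they were 2295 and 2354. Without batches 4 and 5, with 14206 genes tested, they were 2118 and 1642, and 3736 and 3223. The counts of genes below all quiescent libraries also rose past 1.5 times without batch 1 (807 of 12852 genes tested) and without batch 4 (723 of 13407). No gene was called in opposite directions by the main test and any of its 15 alternatives.

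The 2 directions had different shapes. For higher genes the median log2 fold change was 1.78, with quartiles at 0.94 and 3.66, and for lower genes it was -0.71, with quartiles at -0.95 and -0.54. Higher genes numbered 492 at a log2 change of 1 or more, 218 at 3 or more and 116 at 5 or more. Without batches 4 and 5 these counts were 907, 256 and 107. Among lower genes 92 reached a log2 change of -1 or below, against 54 without batch 2, 49 without batch 3, 202 without batches 4 and 5 and 215 without the filter. Without batches 4 and 5 the median of the higher genes was 1.24 and that of the lower genes -0.67. The median higher gene went from 14.1 CPM in quiescent to 69.6 CPM in replicative libraries, and the median lower gene from 177 to 113 CPM, each a median over genes within the list. The lists were picked on these same libraries, so the values give a size and no test.

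The share of genes called lower grew with the level in quiescent cells, while the share called higher was nearly the same in the 3 classes from 1 CPM up. Among the 1877 genes at a quiescent mean of 100 CPM or more, 88 were higher (4.69%) and 299 lower (15.9%), with median log2 fold changes of 0.60 and -0.63. Among the 6720 genes from 10 to 100 CPM, 306 were higher (4.55%) and 120 lower (1.79%), with medians of 1.17 and -1.005. Among the 4219 genes from 1 to 10 CPM, 217 were higher (5.14%), with a median of 3.48, and 1 was lower, at -3.86. The classes are set on the quiescent level, which is also the denominator of the fold change. This alone raises the fold medians of low classes, and it can add lower calls to high classes. By average log2 CPM, 3 genes were higher and 1 lower of 1654 under 2. The counts were 109 and 3 of 3647 from 2 to 4, and 41 and 128 of 515 at 8 or more. Small changes are harder to call at low counts, and how far this shaped the share of lower calls was not tested. Below 1 CPM 154 genes were tested and 70 were higher, with a median of 6.23 and a median replicative level of 28.7 CPM. A gene that low in quiescent cells passed the filter on low counts mostly through its replicative libraries, so the share called in that class is no measure of how many silent genes respond.

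**Figure D3:**
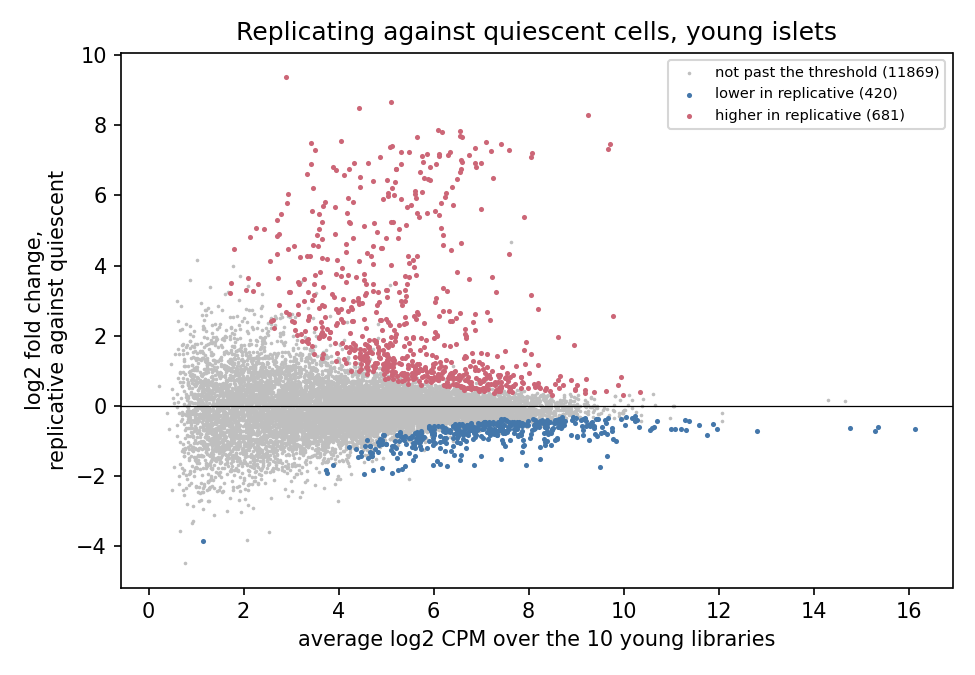
Log2 fold change of replicative against quiescent young cells (vertical axis) by average log2 CPM (horizontal axis) for the 12970 genes tested, with 681 genes called higher in red, 420 called lower in blue and the rest in grey. Rises reach beyond 8 on the log2 scale at low and middle levels, while the falls lie mostly above an average log2 CPM of 4 and within 2 of 0.

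The most abundant transcripts of quiescent cells made up less of the RNA of replicating cells. The 10 genes with the highest mean share of counts in young libraries took 28.7%, 26.0%, 26.0%, 30.1% and 27.4% of counts in quiescent libraries 1 to 5. They took 20.8%, 19.9%, 21.2%, 20.2% and 22.3% in replicative libraries 1 to 5. The replicative library was lower in all 5 batches, with a difference of -6.78 ± 2.16 percentage points (mean ± SD of 5 batches), and the groups did not overlap. An exact permutation test within batches, two-sided, gave p = 0.0625, the smallest it can give with 5 batches, and 0.125 adjusted over 4 library measures, so this design could not pass 0.05. Free exchange of the 10 libraries, which sets the pairing aside, gave an exact p of 0.00794, also its smallest, and 0.0159 adjusted.

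Gene by gene, 6 of those 10 were called lower and none higher, where 3.24% and 5.25% of all genes tested were, with a median log2 fold change of -0.61 and a range of -0.71 to 0.17. The most abundant gene of all stood at 87664 ± 27849 CPM in the quiescent state and at 55149 ± 13160 CPM in the replicative one (SD, n = 5 each). With a log2 fold change of -0.65 (SE 0.0795, edgeR adjusted p = 0.000534), it passed the test with the batch in the model. The spread within each group was wide. Among the 100 most abundant genes 44 were lower and 9 higher, with a median of -0.28 beside -0.08 for all genes. Of 515 genes at 8 or above in average log2 CPM, 128 were lower and 41 higher. The number of genes detected at equal depth was 18121 ± 2820 in the quiescent and 17758 ± 3391 in the replicative state (SD, n = 5 each; exact permutation test within batches, two-sided, p = 0.688).

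The 116 genes called higher by at least 5 on the log2 scale were nearly absent from quiescent libraries. Together they held 367, 228, 143, 105 and 102 CPM in quiescent libraries 1 to 5, and 13265, 21123, 21708, 17141 and 12052 CPM in replicative libraries 1 to 5. The quiescent level was 2.77%, 1.08%, 0.660%, 0.614% and 0.850% of the replicative level of the same batch. Batch 1 had the highest quiescent level and the second lowest replicative level, so its contrast was the smallest. These genes were chosen for a low ratio in the same libraries, and the values carry no test. The source of the remainder in quiescent libraries was not tested.

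Choosing genes in 4 batches and measuring them in the batch left out gave values that the choice had not used, apart from library scaling factors taken from all 10 libraries. Of the genes called higher in the other 4 batches, 513 of 521 were higher in batch 1, 446 of 446 in batch 2, 432 of 432 in batch 3, 533 of 568 in batch 4 and 757 of 966 in batch 5. Their median log2 difference in the batch left out was 1.89, 2.60, 2.83, 1.90 and 1.01 for batches 1 to 5. Among all genes compared, 43.9% to 50.6% were higher in a given batch. The same-direction share was thus 98.5% or more in batches 1 to 3, 93.8% in batch 4 and 78.4% in batch 5.

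For genes called lower in the other 4 batches, 255 of 279 were lower in batch 1, 187 of 190 in batch 2, 170 of 170 in batch 3, 274 of 297 in batch 4 and 527 of 674 in batch 5. Their medians were -0.54, -0.77, -0.87, -0.68 and -0.45. The share that kept the direction was 91.4%, 98.4%, 100%, 92.3% and 78.2% for batches 1 to 5. Batch 5, whose replicative library had the most genes at 0 counts, had the lowest share in both directions. The lists differ between batches, and those for batch 5 were the longest. Their genes also had the smallest median changes in the other 4 batches, 1.45 for higher and -0.69 for lower genes. The cause of the lower share was not tested.

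**Figure D4:**
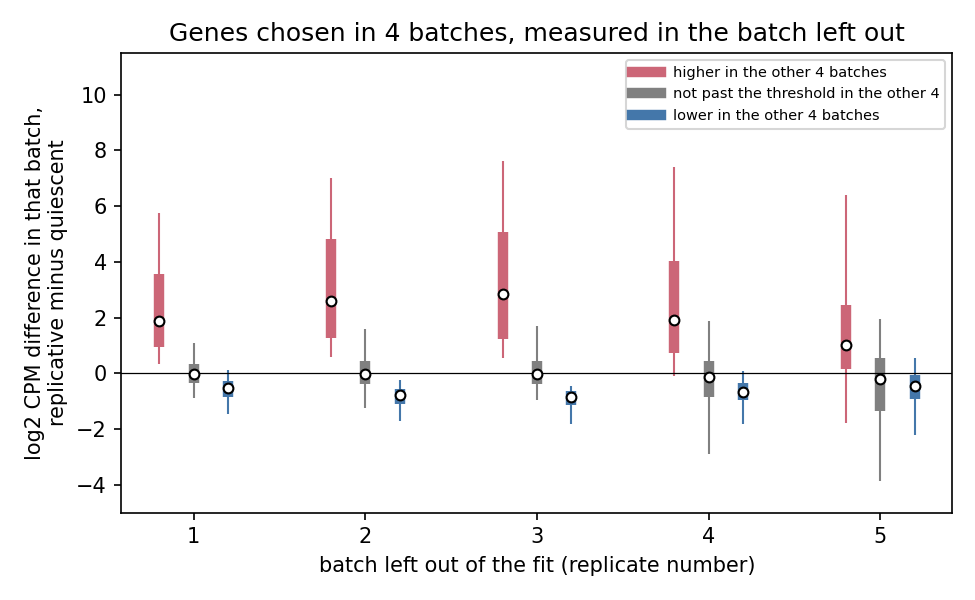
Log2 CPM difference of replicative minus quiescent in the batch left out (vertical axis), by batch (horizontal axis), for genes called higher (red), called lower (blue) or not called (grey) in the other 4 batches. Circles are medians, thick bars the middle 50% and thin lines the middle 90% of genes, and medians of higher genes lie at 1.01 to 2.83 and of lower genes at -0.87 to -0.45.

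The old islets, which share no library with the young ones, were fitted in the same way on their own 8 libraries and gave 473 calls among 12250 genes (3.86%), 342 higher (2.79%) and 131 lower (1.07%). Of the 681 genes called higher in young cells, 626 were also tested in old cells, and 164 of these were called higher there. That is 26.2% of those 626 genes. It is 50.8% of the 323 genes called higher in old cells among those tested at both ages. Among the 420 genes lower in young cells, 90 were also called lower in old ones, 21.4% of the young list and 69.2% of the 130 old ones. For those 626 genes the median log2 fold change was 1.59 in young and 1.38 in old cells, and 551 of the 626 were above 0 in old cells, where 33.9% of all genes tested at both ages were. The young lower genes had medians of -0.71 and -1.07, and 407 of 420 were below 0 in old cells, where 66.1% of all genes were and the median of all genes was -0.40.

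The 4 genes named first moved in the same direction in old cells, and 3 of them passed the test there. ENSRNOG00000059894 ranged from 0.497 to 1.79 CPM in old quiescent and from 125 to 209.9 CPM in old replicative libraries, with a log2 fold change of 7.56 (SE 0.491, edgeR adjusted p = 4.32e-05). ENSRNOG00000008115 ranged from 0.745 to 1.08 and from 36.1 to 235 CPM, a log2 fold change of 7.04 (SE 0.615, edgeR adjusted p = 0.000176). ENSRNOG00000011875 ranged from 415 to 1106 and from 88.0 to 313 CPM, a log2 fold change of -1.67 (SE 0.335, edgeR adjusted p = 0.0219).

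ENSRNOG00000025235 missed the threshold in old cells, where 1 replicative library reached 286 CPM beside quiescent values of 264 to 406 (log2 fold change -1.79, SE 0.442, edgeR adjusted p = 0.0586). The difference of the effect between ages did not pass the test for any of these 4 genes. As young minus old on the log2 scale it was -0.97 (SE 0.383, edgeR adjusted p = 0.352), -0.27 (SE 0.467, adjusted p = 0.874), 0.16 (SE 0.420, adjusted p = 0.924) and 0.01 (SE 0.338, adjusted p = 0.994) for ENSRNOG00000059894, ENSRNOG00000008115, ENSRNOG00000025235 and ENSRNOG00000011875. With standard errors of this size, differences of the order of 1 on the log2 scale could have gone undetected.

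In the test of the age difference itself, with all 18 libraries and a block for each of 9 batches, 11 of 14920 genes (0.0737%) passed the threshold. Of these 11, 3 were also called in young cells, and they are named here after their values were seen. ENSRNOG00000014288 was the gene called lower in young and higher in old replicating cells. It fell in every young batch, from 235, 381, 411, 121 and 63.2 CPM in quiescent libraries 1 to 5 to 115, 160.2, 194, 72.1 and 19.2 CPM in replicative libraries 1 to 5. In old islets it rose in every batch, from 393, 593, 177 and 178 CPM in quiescent to 1567, 3225, 1029 and 2509 CPM in replicative libraries 1 to 4.

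Old replicative libraries thus held the 4 highest values of ENSRNOG00000014288 in the series. The quiescent levels of the ages overlapped. Its log2 fold change was -1.13 in young (SE 0.139, edgeR adjusted p = 0.000540) and 2.78 in old cells (SE 0.305, edgeR adjusted p = 0.000624). The difference, young minus old, was -3.84 (SE 0.318, edgeR adjusted p = 3.00e-05). It kept the call when any 1 batch of either age was left out. It lost it without the block, at nearly the same size (-3.74, edgeR adjusted p = 0.105), and so did the fall in young cells (-1.09, edgeR adjusted p = 0.346).

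The other two moved the same way at both ages and further in old cells. ENSRNOG00000007092 went from 469 ± 190.0 to 298 ± 111 CPM in young (SD, n = 5 each) and from 2582 ± 987 to 578 ± 353 CPM in old cells (SD, n = 4 each). Its log2 fold changes were -0.61 (SE 0.161, edgeR adjusted p = 0.0456) and -2.20 (SE 0.218, edgeR adjusted p = 0.000338), a difference of 1.66 (SE 0.257, edgeR adjusted p = 0.0244). All old quiescent libraries lay above all young libraries, while old replicative libraries overlapped with young ones of both states.

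ENSRNOG00000018087 stood at 16.9, 21.1, 16.1, 15.9 and 27.8 CPM in young quiescent and at 68.3, 35.4, 42.6, 19.2 and 133 CPM in young replicative libraries 1 to 5. The groups overlapped, and batch 4 showed a small difference beside batch 5. Old libraries 1 to 4 held 21.2, 103.9, 18.2 and 21.0 CPM in the quiescent and 445, 1205, 600.2 and 176 CPM in the replicative state. The log2 fold changes were 1.37 (SE 0.300, edgeR adjusted p = 0.0186) and 4.08 (SE 0.368, edgeR adjusted p = 0.000207), a difference of -2.64 (SE 0.456, edgeR adjusted p = 0.0475). The age difference of ENSRNOG00000007092 lost the call in 7 of 10 alternatives and that of ENSRNOG00000018087 in 8 of 10, among them leaving out single batches, with values of 1.51 to 1.87 and -2.94 to -2.27. In young cells alone the fall of ENSRNOG00000007092 lost the call in 7 of 15 alternatives, among them those without batch 1, 2, 3 or 4 (log2 fold changes -0.64 to -0.42). The rise of ENSRNOG00000018087 lost it in 2, without batch 1 (1.22, edgeR adjusted p = 0.0847) and without batch 3 (1.35, edgeR adjusted p = 0.0782).

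**Figure D5:**
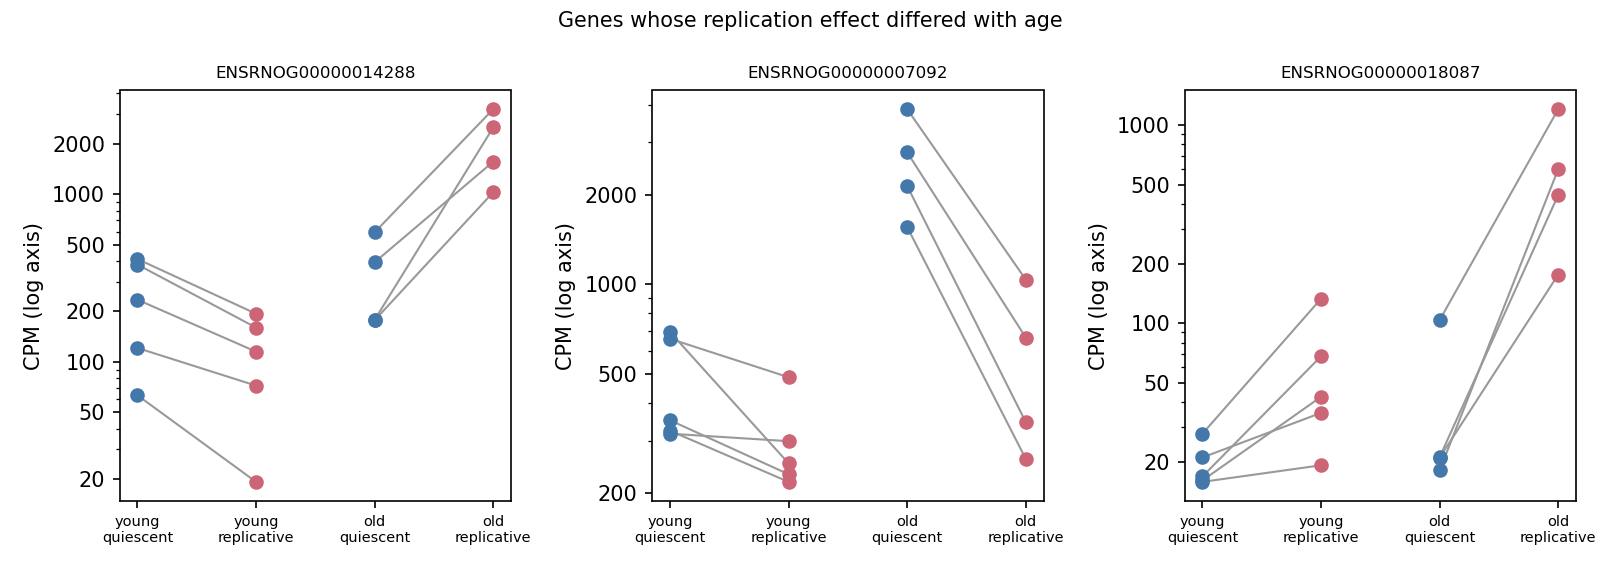
Level of 3 genes in each of the 18 libraries in CPM on a log axis, by age and state, with lines joining the quiescent (blue) and replicative (red) library of a batch. ENSRNOG00000014288 falls in all 5 young batches and rises in all 4 old ones, while the other 2 genes move the same way at both ages.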

How the data were processed

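Per the labels' protocols, total RNA of sorted cells was extracted with a kit for fixed tissue and made into stranded total RNA libraries. The deposited counts are whole numbers per Ensembl gene for 18 libraries. The submitters' processing notes name STAR, DESeq2 and rn6 without role or version. The counting program, annotation and strand setting were not stated in the labels used, so overlapping genes and near-identical copies may share reads. The second table holds the authors' log2 values, which equal log2 of the count over a median-of-ratios size factor, plus 1, within 5.15e-14. It was not used further.

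The 10 young libraries were fitted in edgeR 4.0.16 (R 4.3.3): filterByExpr (minimum count 10; 12970 of 27654 genes kept), TMM scaling, the replicate number as a fixed block, robust quasi-likelihood F test, Benjamini-Hochberg adjustment over all genes tested, threshold 0.05. Standard errors are the fold change over the root of F. Within-batch log2 differences used a prior count of 2. The numbers were taken to pair the libraries. In the young libraries, deviations from group means correlated at 0.129 to 0.447 for same-numbered and -0.357 to 0.178 for other pairs. All 5 quiescent libraries correlated best with their own number, as did 4 of the 5 replicative ones. The old libraries were paired by number too, in their own fit and in that of the age difference, without such a check. The batches are separate pools of rats per the series text.

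Members and lists were chosen with earlier results of these data known. The 35 gene lists and the marker lists need symbols and were not run. By rule, 2 identifiers per direction were named: the smallest p among called genes past 1 in absolute log2 fold change and 2 in average log2 CPM. Alternatives were other scalings, filters and tools (DESeq2 1.42.0, limma 3.58.1), the fit of all libraries, thinning, no block and batches left out. The fits were also run on simulated data, and no result given here rests on that. The simulation for the age difference held no batch effect and the same spread for all genes and libraries, unlike these data.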

Additional observations from a re-analysis of the deposited data

Results flagged for a closer look

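The replication effect differed with age, by the test of the difference itself, for 11 genes. The values, young minus old on the log2 scale, were -3.84 for ENSRNOG00000014288, 1.66 for ENSRNOG00000007092 and -2.64 for ENSRNOG00000018087, the 3 of them that were also called in young cells. One library lay far from the rest of its group: old quiescent replicate 2 held 103.9 CPM of ENSRNOG00000018087. It was the 1 group so found among 34 groups of library and gene values examined, and chance gives about 1 in 20. Finding 1 among 34 is thus no more than chance would give.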

How the results depend on the processing

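The young comparison called 1101 genes, 681 higher and 420 lower, and leaving out 1 batch at a time gave 602 to 1640 calls, 432 to 966 higher and 170 to 674 lower. Without batch 2 or 3 there were 636 or 602 calls, lower calls numbered 279 without batch 1 and 674 without batch 5, and without batches 4 and 5 together (chosen after seeing the data) there were 2574 calls, 1506 higher and 1068 lower. Without the replicate block lower calls numbered 162, and without a filter on low counts 819 beside 712 higher calls, which turns the balance of directions. DESeq2 called 1675 genes, 731 of them lower, and limma-voom with quality weights 3375, 1777 higher and 1598 lower. The fit of all 18 libraries called 400, 317 higher and 83 lower. RLE scaling, thinning to equal depth and the filter at 1 CPM left all 3 counts within 1.5 times. The old count of 473 ran from 218 to 723 without single batches (223, 218 and 723 without old replicate 1, 2 and 3). The age difference called 4 genes without the block and 2 to 42 without single batches (3 without young replicate 1, 4 without young replicate 2, 3 or 5, 2 without old replicate 2, 42 without old replicate 3 and 29 without old replicate 4). The differences in the share of the 10 and the 100 most abundant genes, -6.78 and -7.44 percentage points, had an exact permutation p of 0.0625 within batches (0.125 adjusted), the smallest possible, and passed 0.05 only under free exchange of libraries, which sets the pairing aside (exact p = 0.00794 for both). The cause of these changes was not tested. Genes with an average log2 CPM under 2 gave 3 higher and 1 lower call among 1654 tested, and whether depth limited these calls was not tested.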
